A study of Mus musculus with 12 samples.

Results

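The genes described here are 10 components of the mammalian circadian clock: Arntl (also called Bmal1), Clock, Nr1d1, Nr1d2, Dbp, Per1, Per2, Per3, Cry1 and Cry2. They were picked by symbol from the 24421 rows of the deposited expression table, which held all 10. Their expression was followed in green fluorescent protein (GFP)-sorted cells from the cerebellum of Aldh1l1-GFP mice on a C57/BL6J background, at 4 ages counted in days after birth (P1, P7, P14, P28), with 3 libraries per time point and 12 in all. All libraries share the genotype and no treatment is named, so the groups differ in age. In this transgenic line, GFP is driven by regulatory sequence of Aldh1l1, a gene of folate metabolism that marks astrocytes, so the sorted population is as pure as that reporter and the gate. Animals of both sexes were used in the study, and how many entered a library is not given in the sources used here. Mice were kept in a light-dark cycle, but the hour of collection is not given in the sources used here either. If the time points were collected at different hours, age and hour cannot be told apart in these data.

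In the clock of mammalian cells, ARNTL and CLOCK form a dimer that binds E-box elements and activates Per, Cry, Nr1d1, Nr1d2 and Dbp. PER and CRY proteins return to the nucleus and repress that dimer, which closes the loop in about a day. NR1D1 and NR1D2 (REV-ERB alpha and beta) repress Arntl through RORE elements, and DBP activates Per genes through D-box elements, so that transcripts of this set peak at different hours of the day. Astrocytes carry a functional clock of their own.

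On GRCm38 (GENCODE M21), Arntl lies at chr7:113207465-113314126 on the plus strand, as does Dbp at chr7:45705088-45710203 and Per1 at chr11:69095217-69109960. The other members lie on the minus strand: Clock at chr5:76209868-76304792, Nr1d1 at chr11:98767932-98775333, Nr1d2 at chr14:18204054-18239127, Per2 at chr1:91415982-91459324, Per3 at chr4:151003652-151044665, Cry1 at chr10:85131700-85185064 and Cry2 at chr2:92403646-92434043. Per3 lies within Camta1 on the same strand, with 0 exonic bases in common.

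Reads assigned to genes numbered from 6399499 to 14733985 per library, with 14249 to 18051 genes detected. Within a time point, libraries correlated at 0.931 to 0.981 on the log2 scale (12 pairs), and each pair differed beyond sampling noise. Reads on the 10 clock genes were ample, from 194 to 4367 per gene and library, except for Dbp, which had 23 to 325. Aldh1l1 itself had normalized counts (reads divided by one size factor per library) of 6441, 4741 and 3841 at P1, 1985, 936 and 1488 at P7, 1834, 1978 and 1824 at P14 and 2451, 3338 and 2974 at P28. Summed normalized counts of 10 astrocyte markers ran from 28091 to 52166 at P7, from 153582 to 195443 at P14 and from 356114 to 416483 at P28, with no marker at 0 in any library. At P14, however, the sum of 8 oligodendrocyte and myelin genes, at 340783 to 391448, exceeded that of the astrocyte markers in every library, whereas at P28 it was 104664 to 145552 and at P1 it was 1516 to 2465. The sum of 5 choroid plexus markers ran from 877 to 108818 among the 3 libraries of P14 and from 17738 to 182166 among those of P28. In bulk RNA of this kind, fewer cells of a type and less RNA per cell cannot be told apart.

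The sequence elements through which clock proteins act were searched in the proximal promoters of these genes, since the comparisons below concern their transcripts. RefSeq (GRCm38.p6) gave 13 promoters for 9 of the 10 genes, each covering 250 bases before a transcription start and 50 bases after it, and Per2 was not among them. The letters searched on both strands were CACGTG (E-box), CACGTT (E'-box), TTATGTAA or TTACGTAA (D-box) and TGACGTCA (cyclic AMP response element), together with the RORE. No match overlapped another. The upstream parts of 4 promoters that held a match are given with the match in capitals, each written on the strand of its gene. Per3 (chr4:151044666-151044915, minus strand) held 2 D-boxes, Nr1d1 (chr11:98775378-98775627, minus strand) an E'-box close to its start, Per1 (chr11:69098699-69098948, plus strand) an E-box, and Cry1 (chr10:85185055-85185304, minus strand) an E-box beside an E'-box.
Per3: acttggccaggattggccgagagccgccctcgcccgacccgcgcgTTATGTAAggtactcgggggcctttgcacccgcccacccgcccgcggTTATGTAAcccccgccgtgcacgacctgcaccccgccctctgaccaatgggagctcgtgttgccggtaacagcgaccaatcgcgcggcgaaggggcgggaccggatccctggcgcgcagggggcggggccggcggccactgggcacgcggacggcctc
Nr1d1: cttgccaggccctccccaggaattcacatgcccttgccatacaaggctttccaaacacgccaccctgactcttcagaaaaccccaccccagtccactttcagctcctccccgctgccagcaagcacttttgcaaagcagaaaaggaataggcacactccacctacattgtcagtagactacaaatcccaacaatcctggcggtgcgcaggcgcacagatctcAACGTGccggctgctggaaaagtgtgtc
Per1: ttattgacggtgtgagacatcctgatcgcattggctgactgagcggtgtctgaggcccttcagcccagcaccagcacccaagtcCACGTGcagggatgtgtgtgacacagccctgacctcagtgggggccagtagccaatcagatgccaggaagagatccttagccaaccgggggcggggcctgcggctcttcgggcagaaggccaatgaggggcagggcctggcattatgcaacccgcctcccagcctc
Cry1: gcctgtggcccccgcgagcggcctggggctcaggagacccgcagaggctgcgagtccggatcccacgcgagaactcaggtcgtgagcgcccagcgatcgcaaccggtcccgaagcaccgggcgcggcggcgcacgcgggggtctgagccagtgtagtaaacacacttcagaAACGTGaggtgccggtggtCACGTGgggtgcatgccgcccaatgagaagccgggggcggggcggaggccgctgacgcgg

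The D-boxes of Per3 lay at -205 to -198 and -158 to -151 from the start, the E'-box of Nr1d1 at -28 to -23, the E-box of Per1 at -166 to -161, and the E-box and E'-box of Cry1 at -60 to -55 and -79 to -74. In addition, an E'-box lay at -166 to -161 of Cry2, and a RORE (AAGTAGGTCA) at 28 to 37 after one of the starts of Arntl. Among all 32851 promoters of the same length, 7.15% held the E-box, 4.68% the E'-box, 1.06% the D-box, 0.435% the RORE and 1.79% the cyclic AMP response element. No match to these letters lay within the windows of Clock, Nr1d2 or Dbp. Each match is a description of the sequence, and binding was not measured.

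Among the 10 clock genes, 8 were differentially expressed among the 4 time points (limma moderated F test, adjusted p under 0.05), where 43.8% of all 15464 genes tested passed. Nr1d1, Per3, Nr1d2 and Dbp rose between P7 and P14 and were higher at P28 than at P1. Per1 and Per2 fell between P1 and P7, and Arntl fell between P7 and P14. Clock and Cry1 did not pass the F test, with an adjusted p of 0.171 for each (limma).

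**Figure D1:**
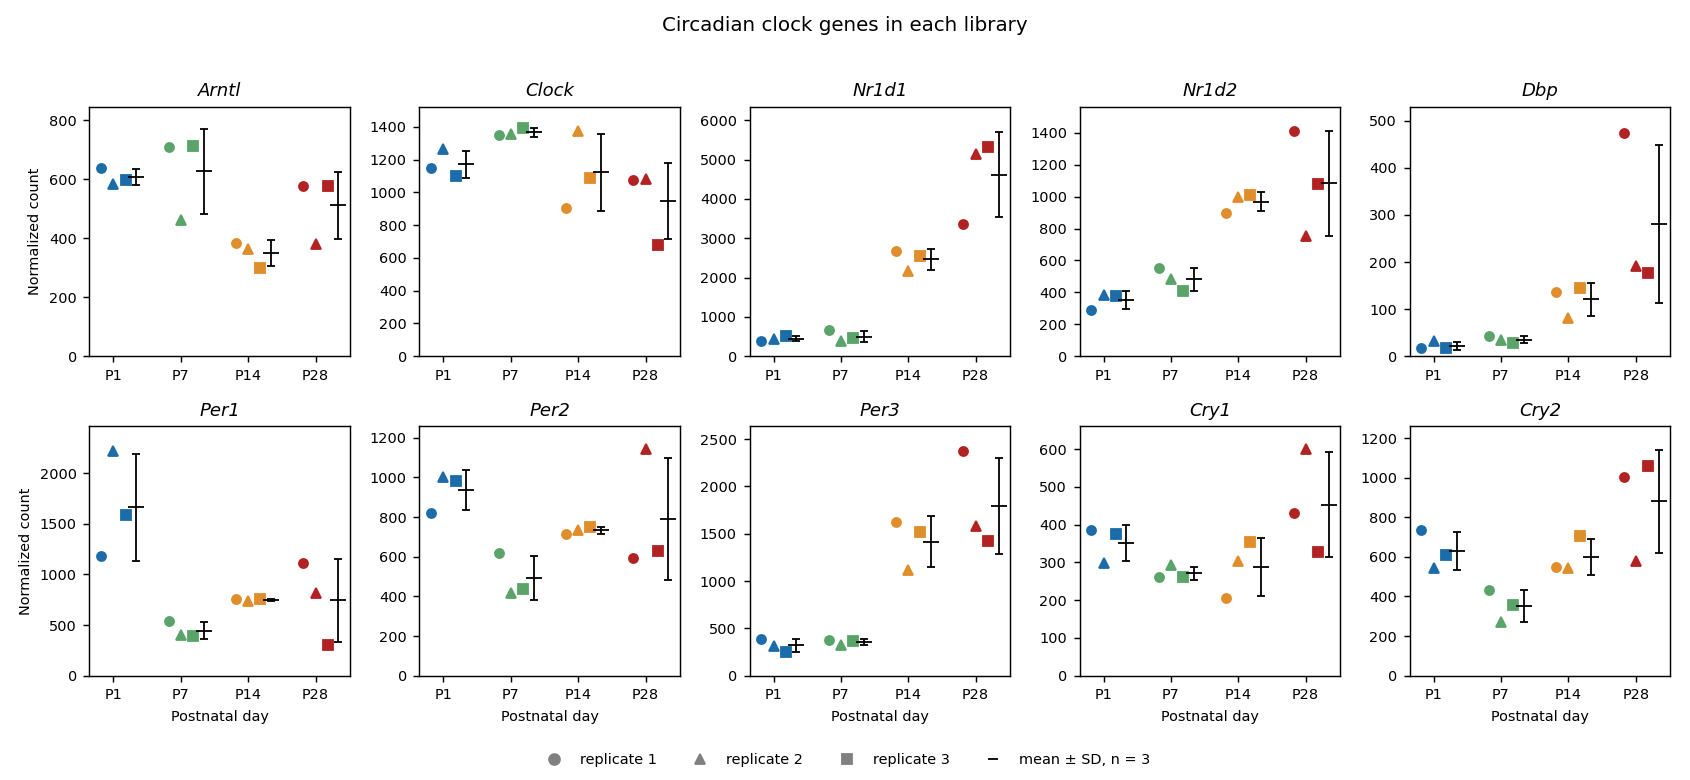
Normalized count (linear vertical axis) of each of the 10 clock genes in every library against postnatal day, with circles, triangles and squares for replicates 1, 2 and 3 and bars for the mean and SD of 3 libraries. Nr1d1 runs from between 375 and 507 at P1 to between 3364 and 5321 at P28, while the 3 P28 libraries of Per1 spread from 304 to 1111.

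By step, 2 of the 10 were differentially expressed from P1 to P7, both lower, against 7.7% of all genes tested (3.47% higher and 4.24% lower). From P7 to P14, 4 were higher and 1 was lower, against 20.9% of all genes (10.8% higher and 10% lower). From P14 to P28, 1 was higher, against 14.4% of all genes (5.68% higher and 8.76% lower). Over the whole interval from P1 to P28, 4 were higher and 1 was lower, against 34.6% of all genes (14.6% higher and 20% lower). The median log2 fold change of the 10 genes was 0.08 for the first step, 0.77 for the second, 0.42 for the third and 0.39 for P28 against P1, beside medians over all genes of 0.04, -0.09, -0.12 and -0.24. Counted instead by libraries that did not overlap between the time points, 6 members were apart from P1 to P7 (38.3% of all genes), 8 from P7 to P14 (46.1%), 2 from P14 to P28 (26.1%) and 7 between P1 and P28 (41.9%). Consecutive steps share the libraries of the time point between them. The shares moved with the scaling: when libraries were scaled by their totals alone, the P28 to P1 comparison had 4 clock genes higher and 4 lower, the median over all genes there was -0.67, and 20.9% of all called genes were higher in place of 42.3%. For P14 against P7 that split was 32.7% in place of 51.9%, and for P28 against P14 it was 19.0% in place of 39.3%.

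**Figure D2:**
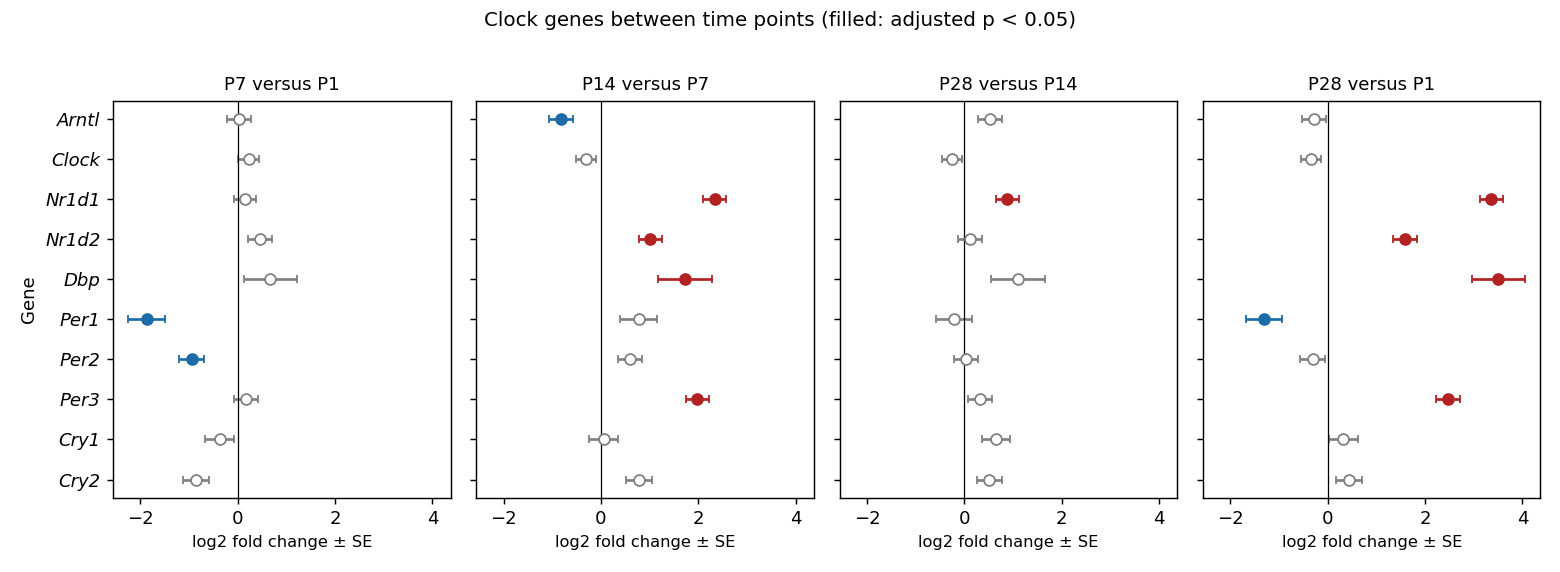
Log2 fold change with its standard error (horizontal axis) of the 10 clock genes (vertical axis) in 4 comparisons of time points. Filled points passed an adjusted p of 0.05, red for higher and blue for lower in the later time point; the largest are Dbp at 3.51 and Nr1d1 at 3.36 for P28 against P1.

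Arntl and Clock encode the activating dimer. Arntl had normalized counts of 639, 585 and 599 at P1, 710.2, 461 and 712 at P7, 383, 365 and 299 at P14 and 577, 379.8 and 579 at P28. All 3 libraries of P14 lay below all those of P1 and P7, while replicate 2 of P28 lay among the P14 libraries. Arntl fell 1.77-fold from P7 to P14 (log2 fold change -0.82, SE 0.25, limma adjusted p = 0.0272). Its log2 fold change from P14 to P28 was 0.53 (limma adjusted p = 0.161), so that a return towards the earlier level did not pass the test. The fall was not called without P7 replicate 1 (limma adjusted p = 0.124), P7 replicate 3 (0.124), P14 replicate 2 (0.0570) or P14 replicate 3 (0.0917).

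Clock passed no comparison. Its normalized counts were 1152, 1262 and 1103 at P1, 1348, 1355 and 1396 at P7, 904, 1374 and 1089 at P14 and 1079, 1082 and 682 at P28. The P7 libraries lay above those of P1 and of P28, and the P14 libraries overlapped with every other time point. No step passed the test, the log2 fold changes being 0.22, -0.30 and -0.26 in order of age, each with an SE of 0.21 (limma adjusted p of 0.675, 0.355 and 0.443). Under scaling by library totals, Arntl and Clock were lower at P28 than at P1, by log2 fold changes of -0.71 (limma adjusted p = 0.0304) and -0.77 (0.0104), against -0.27 (0.412) and -0.34 (0.227) in the scaling used throughout.

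Nr1d1, which encodes the repressor REV-ERB alpha, showed the greatest change of any abundant member. It had normalized counts of 375, 440.1 and 507 at P1, 661, 379.5 and 454 at P7, 2679, 2155 and 2544 at P14 and 3364, 5151 and 5321 at P28. The P1 and P7 libraries overlapped, every P14 library lay above all of them, and every P28 library lay above every P14 library. Nr1d1 rose 5.04-fold from P7 to P14 (log2 fold change 2.33, SE 0.23, limma adjusted p = 8.8e-06) and 1.84-fold from P14 to P28 (0.88, limma adjusted p = 0.0222). From P1 to P28 the rise was 10.3-fold (log2 fold change 3.36, limma adjusted p = 1.19e-07). With each library left out in turn, the P7 to P14 change stayed between 2.16 and 2.56 with adjusted p of at most 1.36e-04.

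The smaller rise of Nr1d1 from P14 to P28 was less firm. It was not called under scaling by library totals (log2 fold change 0.65, limma adjusted p = 0.0677), with P14 and P28 alone in the fit (0.0562), or without P14 replicate 2 (0.0792), P14 replicate 3 (0.0587), P28 replicate 2 (0.0548) or P28 replicate 3 (0.0594). In that step the sum of the oligodendrocyte genes was lower and that of the astrocyte markers higher in every P28 library than in every P14 library, and their part in the result was not tested. Nr1d1 also overlaps Thra, the gene of thyroid hormone receptor alpha on the other strand, over 263 of its 3077 exonic bases (8.55%), and whether reads were counted by strand is not stated. Thra had normalized counts of 1844, 1399 and 1998 at P7, 1256, 1111 and 1109 at P14 and 1049, 2541 and 2589.7 at P28. From P7 to P14, while Nr1d1 rose, the log2 fold change of Thra was -0.58 (SE 0.28, limma adjusted p = 0.173). From P14 to P28, where Nr1d1 rose again, that of Thra was 0.72 (unadjusted p = 0.0222, limma adjusted p = 0.101). At P28, replicate 1 was the lowest library for both genes, and what part of the Nr1d1 counts came from shared bases was not tested.

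Nr1d2, which encodes REV-ERB beta, had normalized counts of 288, 387 and 379 at P1, 553, 482 and 412 at P7, 900.2, 999 and 1009 at P14 and 1413, 756 and 1082 at P28. The libraries of P1, P7 and P14 were fully separated in order of age, and those of P28 spread around those of P14. The gene rose 2.02-fold from P7 to P14 (log2 fold change 1.01, SE 0.24, limma adjusted p = 0.00726) and was 3.01-fold higher at P28 than at P1 (1.59, limma adjusted p = 1.62e-04). Its log2 fold change from P14 to P28 was 0.12 (limma adjusted p = 0.785). Both calls remained with each library left out, at adjusted p of at most 0.0418 and 0.00142.

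Dbp, a PAR bZIP activator and a direct output of the clock, was the least abundant member. Its normalized counts were 17.2, 32.2 and 17.4 at P1, 43.0, 35.3 and 27.1 at P7, 137, 80.4 and 146 at P14 and 475, 192 and 177 at P28. The P1 and P7 libraries overlapped, whereas the P14 libraries lay above both and the P28 libraries above those of P14. Replicate 1 of P28 held more than the other 2 together. From P14 to P28 the log2 fold change was 1.11 (SE 0.55, limma adjusted p = 0.192), so that step did not pass the test. Dbp was 11.4-fold higher at P28 than at P1 (log2 fold change 3.51, SE 0.55, limma adjusted p = 2.31e-04), and this log2 fold change stayed between 3.06 and 3.79 with each library left out. The rise from P7 to P14 was 3.32-fold (log2 fold change 1.73, limma adjusted p = 0.0371). That step was not called under scaling by library totals (1.48, limma adjusted p = 0.0692), or without P7 replicate 1 (0.0725), P7 replicate 2 (0.0921), P7 replicate 3 (0.134), P14 replicate 1 (0.105) or P14 replicate 3 (0.110).

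Dbp shares 539 of its 2993 exonic bases (18.0%) with Sphk2, the sphingosine kinase gene on the other strand, which was looked at after the values were seen. Sphk2 had normalized counts of 167, 370 and 184 at P1, 175, 123 and 229 at P7, 426, 533 and 389.9 at P14 and 247, 692 and 828 at P28. It rose from P7 to P14 by a log2 fold change of 1.38 (SE 0.44, limma adjusted p = 0.0365), and what part of either gene's counts came from shared bases was not tested. Sphk2 was also higher at P28 than at P1, by a log2 fold change of 1.21 (SE 0.44, limma adjusted p = 0.0450). At P1, replicate 2 had the highest value of both genes. At P7, P14 and P28, the library with the highest Sphk2 value had the lowest Dbp value.

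Among the period genes, which encode the PER repressors, Per1 and Per2 fell early and Per3 rose later. Per1 had normalized counts of 1180.0, 2223 and 1585 at P1, 539.8, 403 and 389 at P7, 753, 739 and 760.2 at P14 and 1111, 817 and 304 at P28. Every P7 library lay below every P1 and P14 library, the P14 libraries lay close together with a coefficient of variation of 1.40%, and the P28 libraries spanned the P7 and P14 levels. The fall from P1 to P7 was 3.66-fold (log2 fold change -1.87, SE 0.37, limma adjusted p = 0.00606) and remained called with each library left out, at adjusted p of at most 0.0391. At P28, Per1 was 2.47-fold lower than at P1 (log2 fold change -1.30, limma adjusted p = 0.0148). This difference was not called with P1 and P28 alone in the fit (limma adjusted p = 0.0712) or without P1 replicate 2 (-1.07, 0.0679). Without P28 replicate 3, the lowest of its group, the log2 fold change was -0.75 and remained called.

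Per1 is known to respond acutely to glucocorticoids and to cell activation, so 2 gene lists of such responses were set beside it. The summed normalized counts of 12 glucocorticoid-responsive genes were 6510.3, 15845 and 7508 at P1, and the highest of these belonged to the P1 library with the highest Per1. At P7 they were 5719, 5028 and 4925, and from P1 to P7, 2 of the 12 fell and the other 10 were not called. These sums were 17043 to 21806 at P14 and 25627 to 34468 at P28, above every P1 value. Every Per1 value at P14 and P28, in contrast, lay below those of P1. The 12 genes did not move together. From P1 to P28, 6 were higher, 1 was lower and 5 were not called, with log2 fold changes from -4.30 to 2.53. For 15 immediate early genes the sums were 63864, 63612 and 49644 at P1 and 28689 to 38661 at P7. In that step 2 of 15 were lower and 13 were not called, where 3.47% of all genes tested were higher and 4.24% lower. The highest sum of the 15 lay in the library with the lowest Per1 at P1 and P28, and in that with the highest Per1 at P7 and P14. From P14 to P28, 8 of those 15 fell and 7 were not called, where 8.76% of all genes tested were lower. Cell type markers differed in the first step as well. From P1 to P7, 5 of 10 astrocyte markers fell and 2 rose, their sum being 55208 to 69675 at P1 and 28091 to 52166 at P7. In the same step 7 of 8 oligodendrocyte genes rose (sums of 1516 to 2465 and of 21987 to 33778), and 2 of 5 choroid plexus markers rose (sums of 309.7 to 763 and of 47852 to 127454). The part of these responses and cell types in the Per1 and Per2 values was not tested.

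Per2 had normalized counts of 822, 1005 and 982 at P1, 621, 416 and 439.5 at P7, 717, 733 and 750.4 at P14 and 595, 1145 and 629 at P28. The P1, P14 and P7 libraries were separated in that order from high to low, while replicate 2 of P28 was the highest of all 12. Per2 fell 1.92-fold from P1 to P7 (log2 fold change -0.94, SE 0.25, limma adjusted p = 0.0337). The call was lost without any 1 of P1 replicate 1 (limma adjusted p = 0.0672), P1 replicate 2 (0.120), P1 replicate 3 (0.0930), P7 replicate 2 (0.143) or P7 replicate 3 (0.132). Between P1 and P28 the log2 fold change of Per2 was -0.31 (limma adjusted p = 0.366), and it passed under scaling by library totals (-0.74, 0.0287) or without P28 replicate 2 (-0.61, 0.0416). From P7 to P14 the log2 fold changes of Per1 and Per2 were 0.77 (limma adjusted p = 0.171) and 0.60 (0.113). With only P7 and P14 in the fit both passed, at 0.00936 and 0.0377, as they did when P28 replicate 3 (0.0259 for Per1) or P28 replicate 2 (0.0370 for Per2) was left out.

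Per3 was low at P1 and P7 and high at P14 and P28. It had normalized counts of 391, 311 and 255 at P1, 379.8, 323 and 362 at P7, 1625, 1113 and 1514 at P14 and 2373, 1577 and 1427 at P28. The P1 and P7 libraries overlapped, as did those of P14 and P28, and both later groups lay above both earlier ones. Per3 rose 3.94-fold from P7 to P14 (log2 fold change 1.98, SE 0.24, limma adjusted p = 4.55e-05). It was 5.55-fold higher at P28 than at P1 (2.47, limma adjusted p = 3.26e-06), and the P14 to P28 change was 0.32 (limma adjusted p = 0.400). With each library left out, the P7 to P14 change stayed between 1.87 and 2.14.

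The cryptochrome genes encode the CRY repressors. Cry1 had normalized counts of 386, 298 and 374 at P1, 260.4, 292 and 260.4 at P7, 205, 303 and 355 at P14 and 429.6, 602 and 327 at P28. The P7 libraries lay below those of P1 and P28, and those of P14 overlapped with every other time point. No step passed the test, the largest log2 fold change being 0.64 from P14 to P28 (SE 0.29, limma adjusted p = 0.152).

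Cry2 had normalized counts of 735, 544 and 610.3 at P1, 432, 271 and 357 at P7, 551, 543 and 704 at P14 and 1004, 581 and 1058 at P28. All P7 libraries lay below those of the other time points, and replicate 2 of P28 lay apart from its group, among the P14 libraries. Cry2 passed the F test (limma adjusted p = 0.00777), but the single steps did not. They gave log2 fold changes of -0.85 for P7 against P1 (SE 0.27, limma adjusted p = 0.0700), 0.78 for P14 against P7 (0.0514) and 0.52 for P28 against P14 (0.207). Both were called by DESeq2 (adjusted p = 0.0340 for the first and 0.0351 for the second) and in a fit of the compared time points alone (0.0224 and 0.0236 with limma). Without P28 replicate 2, P28 was higher than P14 (log2 fold change 0.79, limma adjusted p = 0.0417) and than P1 (0.72, 0.0349). Cry2 shares 295 of its 6320 exonic bases (4.67%) with D930015M05Rik on the other strand.

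To compare levels between genes, normalized counts were divided by the exonic length in kilobases. That length joined all exons of a gene in GENCODE M21, whereas reads were assigned to UCSC transcripts. The order of genes therefore depends on the length used. At P1, Per1 was the most abundant member at 295 ± 93.4 normalized counts per kilobase (SD, n = 3), followed by Per2 at 159.9 ± 17.01 and Nr1d1 at 143 ± 21.5. The lowest were Per3 at 33.2 ± 7.09 and Dbp at 7.44 ± 2.86. At P28 the order was led by Nr1d1 at 1499 ± 352, followed by Nr1d2 at 200.3 ± 60.7 and Per3 at 187 ± 52.9, which did not differ beyond their spread. Arntl at 68.1 ± 15.2 and Clock at 69.0 ± 16.8 stood lowest at P28 and lay within each other's SD. Dbp reached 94.0 ± 56.0 there. At P14, Nr1d1 at 799 ± 88.5 and Nr1d2 at 179 ± 11.1 were likewise the highest.

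Because transcripts of these genes oscillate, libraries collected at different hours within one time point would spread, and the spread between libraries was examined as a description. The residual SD of log2 values around the time point means was 0.25 for Clock, 0.27 for Arntl, 0.28 for Nr1d2, 0.29 for Per3, 0.31 for Nr1d1, 0.32 for Per2, 0.32 for Cry1, 0.33 for Cry2, 0.54 for Dbp and 0.55 for Per1. The median of the 10 was 0.31, against 0.55 over all genes tested, and 9 of the 10 lay below that value. The ratio of a gene's residual SD to the SD that the trend of variance gives at its level of expression was 1.90 for Per1, and ran from 0.675 (Dbp) to 1.20 (Nr1d1) for the other members. By time point, the median SD of the 10 genes and of all genes was 0.22 and 0.34 at P1, 0.29 and 0.25 at P7, 0.20 and 0.42 at P14, and 0.45 and 0.66 at P28.

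**Figure D3:**
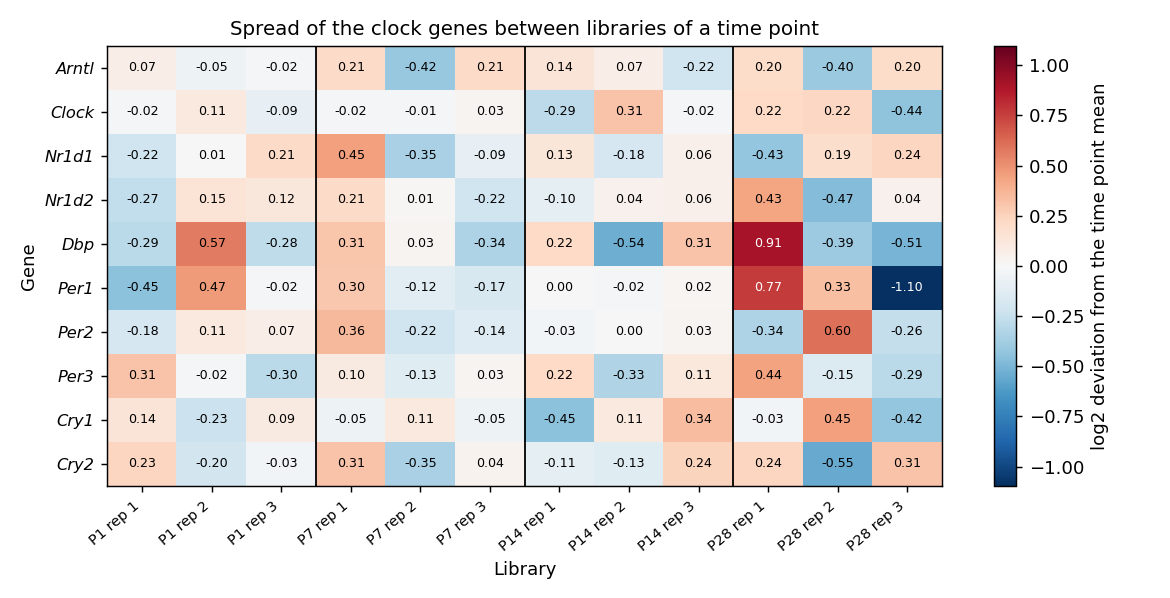
Deviation of each clock gene (rows) from its time point mean in each library (columns), as log2 values written in the cells and coloured from blue (below) to red (above). The P28 columns hold the strongest colours, at 0.91 for Dbp and 0.77 for Per1 in replicate 1 and -1.10 for Per1 in replicate 3, whereas Per1 and Per2 are near 0 throughout P14.

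The P28 libraries differed most in Per1, with deviations of 0.77, 0.33 and -1.10, and in Dbp, with 0.91, -0.39 and -0.51. Per2 deviated by -0.34, 0.60 and -0.26, and Arntl by 0.20, -0.40 and 0.20, so that replicate 2 of P28 had the highest Per2 and Cry1 and the lowest Arntl, Cry2 and Nr1d2 of its group. At P14, by contrast, the SD was 0.02 for Per1 and 0.03 for Per2, lower than for all but 0.808% and 1.22% of genes. Without P28 replicate 3 the residual SD of Per1 was 0.30 in place of 0.55, and without P28 replicate 2 that of Per2 was 0.19 in place of 0.32.

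In a running clock, Arntl is out of phase with the genes that its protein activates, so the deviations of Arntl were set against those of the other 9 members over the 12 libraries. Cry1 had a Pearson r of -0.655 and a Spearman rho of -0.629 (exact permutation within time points, p = 0.0394 and 0.0355), which did not pass adjustment over the 9 relations (0.344 and 0.319). Without the 2 libraries farthest in Arntl, replicates 2 of P7 and P28, r was -0.554. Cry2 had an r of 0.709 and a rho of 0.671 (exact permutation p = 0.0764 and 0.0887, adjusted 0.344 and 0.399), which rested on those 2 libraries, since r was 0.240 without them. For the remaining 7 genes r lay between -0.383 (Per2) and 0.369 (Nr1d2), with adjusted permutation p of 0.864 for each. The log2 ratio of Dbp to Arntl within a library ran in P1 libraries from -5.13 to -4.14, in P7 libraries from -4.66 to -3.67, in P14 libraries from -2.17 to -1.03 and in P28 libraries from -1.70 to -0.28, without overlap between P7 and P14. That of Nr1d1 to Arntl ran from -0.77 to -0.10 over the P1 and P7 libraries and from 2.54 to 3.76 over those of P14 and P28.

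Beyond the 10 members, 25 other genes of the clock pathway were examined, and all were tested. From P1 to P7, 4 were higher (Csnk1e, Nampt, Rora and Ube3a) and 1 was lower (Usp2). From P7 to P14, 3 were higher (Bhlhe41, Npas2 and Cipc) and 4 were lower (Timeless, Csnk1e, Gsk3b and Wee1). From P14 to P28, 6 were higher (Bhlhe41, Btrc, Rora, Rorb, Tef and Usp2) and 1 was lower (Ciart). Comparing P28 with P1, 11 were higher and 5 were lower, and 17 of the 25 passed the F test. These counts stand against the shares of all genes given above. The median log2 fold change of the 25 was 0.01, -0.11, 0.45 and 0.49 in these comparisons. With single libraries left out, the count for the first step was the least stable. It was 0 without P1 replicate 1 (limma, with 8 of 25 at an unadjusted p under 0.05). It was 1 without P1 replicate 2 or any 1 of the P7 replicates. The later counts moved less in these fits. From P7 to P14 the 7 called became 4 without P14 replicate 2 or any 1 of the P7 replicates. From P14 to P28 the 7 became 3 without P14 replicate 3 and 4 without P14 replicate 1 or 2. Between P1 and P28 the 16 became 7 without P1 replicate 1 and 9 without P1 replicate 3.

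Some paralogs of clock factors and some receptors that regulate Arntl rose in at least 1 step. Arntl2, the paralog of Arntl, had at most 54 reads in a library and passed no comparison. Its log2 fold change from P14 to P28 was -2.97 (SE 0.96, limma adjusted p = 0.0525). Npas2, the paralog of Clock that can take its place beside ARNTL, had normalized counts of 99.1, 96.5 and 79.5 at P1, 57.3, 53.7 and 72.1 at P7, 208, 382 and 165 at P14 and 704, 439 and 108 at P28. All P14 libraries lay above all earlier ones, and those of P28 ranged over both sides of P14. Npas2 rose from P7 to P14 by a log2 fold change of 1.94 (SE 0.57, limma adjusted p = 0.0256). Rora and Rorb encode receptors that activate at the RORE elements which REV-ERB proteins repress. Rora rose from P1 to P7 (log2 fold change 0.78, SE 0.20, limma adjusted p = 0.0298). In that step the libraries overlapped, with P7 replicate 2 (1395 normalized counts) below P1 replicate 2 (1428). Rora rose again from P14 to P28 (0.86, limma adjusted p = 0.0131). Its 3 libraries held 3246, 3384 and 3167 normalized counts at P28 against 1902, 1835 and 1662 at P14. Rorb rose from P14 to P28 by 1.48 (SE 0.30, limma adjusted p = 0.00595), from 2132, 1556 and 1525 to 4058, 4101 and 6589 normalized counts. From P1 to P7 its log2 fold change was -0.91 (limma adjusted p = 0.0853), with every P7 library below every P1 library.

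**Figure D4:**
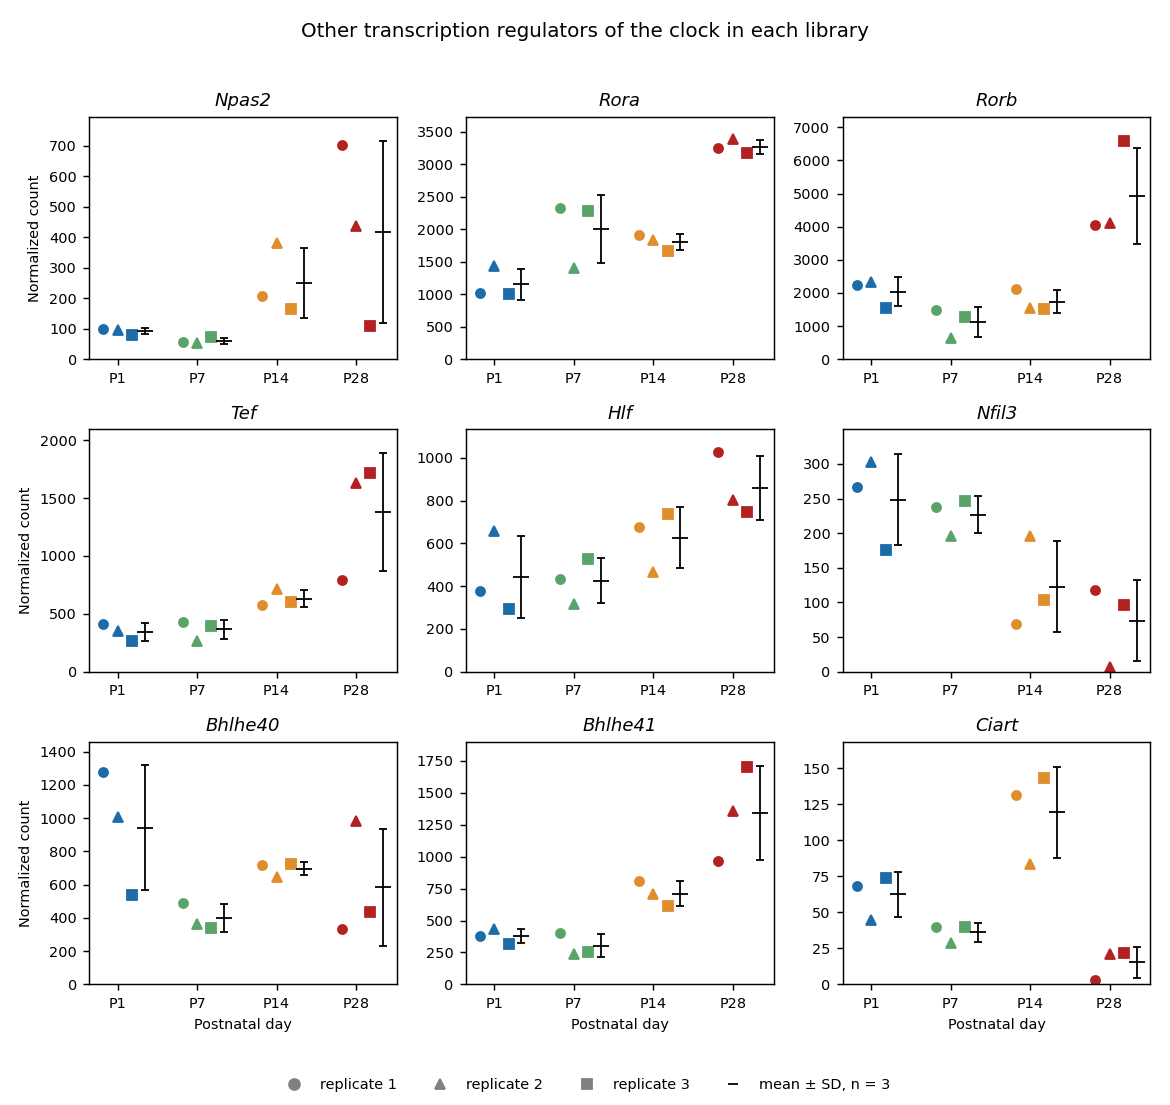
Normalized count (linear vertical axis) of 9 other transcription regulators of the clock in every library against postnatal day, with circles, triangles and squares for replicates 1, 2 and 3 and bars for the mean and SD of 3 libraries. Rorb, Tef and Bhlhe41 are highest at P28 (Bhlhe41 between 969 and 1704), while Ciart is lowest there, between 2.92 and 21.6.

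Tef and Hlf encode relatives of DBP that bind the same D-box. Tef had normalized counts of 413, 351 and 263 at P1, 433, 269.6 and 393 at P7, 575, 716 and 606 at P14 and 792, 1626 and 1716 at P28. Each P14 library lay above all earlier ones and each P28 library above those of P14. The rise from P14 to P28 was 1.05 (SE 0.30, limma adjusted p = 0.0326), and P28 exceeded P1 by 1.95 (limma adjusted p = 2.12e-04). Hlf was higher at P28 than at P1 by 1.03 (SE 0.31, limma adjusted p = 0.0184). Nfil3, which encodes a repressor at D-boxes, was lower at P28 than at P1 by a log2 fold change of -2.42 (SE 0.79, limma adjusted p = 0.0279). It had 118, 7.08 and 96.0 normalized counts at P28, the lowest from 6 reads, against 266, 303 and 176 at P1. Nfil3 did not pass the F test (limma adjusted p = 0.0590).

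Repressors of the ARNTL and CLOCK dimer outside the Per and Cry families moved in both directions. Bhlhe41 (DEC2) had normalized counts of 405, 241 and 257 at P7, 806, 709.8 and 614 at P14 and 969, 1355 and 1704 at P28, without overlap between these time points. It rose by 1.27 from P7 to P14 (SE 0.26, limma adjusted p = 0.00332) and by 0.89 from P14 to P28 (0.0373). Cipc rose by 0.61 from P7 to P14 (SE 0.20, limma adjusted p = 0.0451) and was 2.70-fold higher at P28 than at P1 (limma adjusted p = 9.53e-05). Ciart (CHRONO) had 131, 83.6 and 143 normalized counts at P14 and 2.92, 21.2 and 21.6 at P28, a fall (log2 fold change -3.23, SE 0.70, limma adjusted p = 0.00878). Bhlhe40 (DEC1) passed no comparison, its log2 fold change being -1.17 from P1 to P7 (SE 0.37, limma adjusted p = 0.0752).

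Of the genes that act on clock proteins, Csnk1e, a kinase that phosphorylates PER, rose from P1 to P7 (log2 fold change 0.68, SE 0.19, limma adjusted p = 0.0467). It then fell from P7 to P14 by a larger amount (-1.30, limma adjusted p = 2.64e-04), from 1643, 1399 and 1599.9 to 703, 638 and 551 normalized counts. Timeless, known for its part in DNA replication forks as well as in the clock, fell 17.9-fold in that step (log2 fold change -4.16, SE 0.67, limma adjusted p = 4.94e-04), from 199, 169 and 184 to 23.3, 3.17 and 9.77 normalized counts. In the same step, 2 of 4 granule neuron precursor genes fell and the other 2 were not called, their summed normalized counts being 3947 to 6990.1 at P7 and 2482 to 3957 at P14, and their part in the result was not tested.

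The rise of Nr1d1, Nr1d2, Dbp and Per3 from P7 to P14 coincided with changes in marker genes of several cell types. In that step 8 of 10 astrocyte markers rose and 2 were not called, all 8 oligodendrocyte genes rose, and all 5 granule neuron genes rose, their summed normalized counts going from 186 to 288 at P7 to 5870.3 to 13215 at P14. Of 12 glucocorticoid-responsive genes, 6 rose and 6 were not called. Among all genes tested, 10.8% rose and 10% fell in that step, and 5.68% rose and 8.76% fell in the next. From P14 to P28, 8 of 10 astrocyte markers rose, 6 of 8 oligodendrocyte genes fell and the 5 granule neuron genes had log2 fold changes from -1.33 to -0.42, whereas Nr1d1 rose and Nr1d2, Dbp and Per3 did not pass the test. Markers of the other cell types had, at P7, P14 and P28 respectively, sums of 2616 to 3170.3, 3619 to 4342 and 1222 to 2132 for 3 oligodendrocyte precursor genes, 1627 to 2377, 1672 to 2035 and 1543 to 4178 for 5 Purkinje cell genes, and 1084 to 1623, 1905 to 3012 and 1485 to 1919 for 6 microglia genes. Endothelial genes (5) summed to 1004 to 5676, 2899 to 3522 and 2096 to 3160.4, and 5 red blood cell genes to at most 118 in any library. Gabra6, Atoh1, Barhl1, Cspg4, Tmem119 and Aqp1, which define granule neurons, their precursors, oligodendrocyte precursors, microglia and choroid plexus, were at 0 in at least 1 library. The part of these cell types in the clock gene results was not tested.

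The genes whose levels were most like those of the 3 members with the smallest F test p were found by Pearson correlation of log2 values over the 12 libraries, as a description, since the points share the age order and cell makeup of the libraries. For Nr1d1 these were Tlr3 (r = 0.986), Cyp2d22 (0.985) and Elmo2 (0.985). For Per3 they were Ank (0.988), Plekhb1 (0.976) and Sorl1 (0.976). For Nr1d2 they were Krt222 (0.966), Pvalb (0.962) and Zbtb7a (0.960). Tlr3, which encodes a sensor of double-stranded RNA, had mean normalized counts of 278 ± 77.9, 263 ± 39.3, 1340.5 ± 79.4 and 2864 ± 467 in order of age. Pvalb, which encodes the calcium buffer parvalbumin of Purkinje cells and interneurons, had 9.33 ± 2.70 at P1 and 102 ± 40.7 at P14.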

How the data were processed

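RNA of GFP-sorted cerebellar cells was sequenced, with 3 libraries per age. The authors mapped reads to mm10 with STAR (2.5.0a per the submitters' processing notes, which also name FastQC 0.11.7, MultiQC 1.11 and DESeq2 1.30.1), assigned them to UCSC transcripts and normalized the read counts. The deposited signal values are normalized counts: the authors had divided each library's reads by a size factor. Undoing this gave whole reads (within 0.01) for 100% of values. The treatment of shared reads and of strand is not stated. All column names carry P28, so the time points rest on the labels, and 0 columns were left unmatched. Nothing in the labels says that replicates came from separate animals, so that p-values measure only the spread between these libraries, which may be technical.

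Values were tested as log2(value + 1) with limma (3.58.1, R 4.3.3; moderated tests, variance trend), in one fit of the 12 libraries over 15464 genes that reached a value of 10 in 3 or more libraries. Calls used a two-sided Benjamini-Hochberg adjusted p under 0.05 over all genes tested. Fold changes on this scale understate those of low genes. Alternatives were pseudocounts of 0.1 and 10, no filter, at least 10 reads in every library, library totals, TMM scaling, edgeR (4.0.16, quasi-likelihood) and DESeq2 (1.42.0) on the recovered reads, the compared time points alone, the replicate number as a block, an unadjusted p under 0.05 with a log2 fold change over 0.75, that change with an adjusted p, and leaving out single libraries. Scripts were checked on simulated counts first.

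The members, the lists of other clock genes, responses and cell types, and the rule for named genes were chosen with earlier results of these data known. The rule named all 10 members, the 6 other clock genes with the smallest F test p among those called, 9 transcription regulators of the clock (Npas2, Rora, Rorb, Tef, Hlf, Nfil3, Bhlhe40, Bhlhe41 and Ciart), Thra, Aldh1l1 and, for 3 members, the 3 genes most like each. Sphk2, D930015M05Rik, Camta1 and the other members of the lists named in the text lie outside it. GENCODE M21 (GRCm38, the build of mm10) gave the gene models, and RefSeq the promoters.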

Additional observations from a re-analysis of the deposited data

How the results depend on the processing

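Counts of differentially expressed clock genes moved by over 1.5 times under few settings. From P7 to P14 the count was 5 and became 8 with P7 and P14 alone in the limma fit. From P14 to P28 it was 1 and became 0 with limma on library totals (2 of 10 at an unadjusted p under 0.05) and 0 with P14 and P28 alone in the fit (1 of 10), while edgeR and DESeq2 each called 1. From P1 to P28 it was 5 and became 8 under library totals. Among the 25 other clock genes, the 5 called from P1 to P7 became 3 without a filter on low values. They became 3 with an added log2 fold change over 0.75 and 2 with the replicate number as a block. With the compared time points alone in the limma fit, the later counts of these 25 moved. The 7 called from P7 to P14 became 13, the 7 from P14 to P28 became 3, and the 16 between P1 and P28 became 8. The cause of these shifts was not tested.

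With each library left out, the counts of clock genes ran from 1 to 3 from P1 to P7, from 3 to 7 from P7 to P14, from 0 to 1 from P14 to P28 and from 4 to 7 between P1 and P28. Those of the 25 others lay at 0 to 6, 4 to 10, 3 to 7 and 7 to 17 in the same order. The F test count ran from 6 to 8 over these fits. The median residual SD of the 10 members ran from 0.26 to 0.33.

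Log2 fold changes that turned in sign had not been called. Under library totals these were Cry1 from P7 to P14 (-0.20) and from P1 to P28 (-0.11), and Per2 (-0.20) and Nr1d2 (-0.12) from P14 to P28. With single libraries left out, Arntl (-0.086 to 0.23) and Nr1d1 (-0.076 to 0.32) turned between P1 and P7, and Cry1 (-0.12 to 0.28) between P7 and P14. Between P14 and P28, Per1 (-0.59 to 0.34, turned without P28 replicate 3), Per2 (-0.26 to 0.21, without P28 replicate 2) and Nr1d2 (-0.10 to 0.35, without P28 replicate 1) turned. In every fit run, Nr1d1, Nr1d2 and Per3 were called higher at P14 than at P7, and Nr1d1, Nr1d2, Per3 and Dbp higher at P28 than at P1.

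Whether the replicate numbers pair the samples is not stated. Deviations of libraries with the same number correlated at -0.03 to 0.14 (18 pairs, median 0.03), those with other numbers at -0.10 to 0.05 (36 pairs, median -0.01). Deviations within a time point depend on one another through its mean, so these correlations cannot decide on a pairing. With the replicate block, 3, 6, 1 and 5 clock genes were called in the 4 comparisons against 2, 5, 1 and 5 (Cry2 being added from P1 to P7 and from P7 to P14), and 7 in place of 8 passed the F test. Depth limits Dbp, Ciart, Nfil3 and Timeless most, with 23, 2, 6 and 3 reads in their lowest libraries.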
